A study of Rattus norvegicus with 6 samples.

Results

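The 9 genes described here encode enzymes of the tricarboxylic acid cycle: citrate synthase (Cs), the subunits of NAD-dependent isocitrate dehydrogenase (Idh3a, Idh3b and Idh3g), components of the 2-oxoglutarate dehydrogenase complex (Ogdh and Dlst), subunits of succinate-CoA ligase (Suclg1 and Sucla2) and mitochondrial malate dehydrogenase (Mdh2). They were taken by symbol from the 17089 genes of the deposited table. All 9 were found, 8 by the exact symbol and Idh3b as the row spelled Idh3B, the same letters with a capital at the end. The table holds 6 libraries from primary neonatal rat ventricular myocytes, a primary culture of heart muscle cells taken from pups of the Sprague Dawley strain aged 1 to 3 days. On the day of isolation the cells of 3 libraries were given an adenovirus with GFP (Ad-GFP, called GFP below) and 3 an adenovirus with Tbx18 and GFP joined by an internal ribosome entry site (Ad-Tbx18-IRES-GFP, called Tbx18 below), and RNA was taken on day 4 after gene transfer. Both groups therefore carried a virus and GFP, and the serum change from 10% to 2% was common to them. The deposited column names mark all 6 libraries as unpaced controls (unpace, Control). The comparison asks how forced expression of Tbx18, a developmental T-box factor needed for formation of the sinus node, alters the transcriptome of ventricular cells. Whether the replicates were separate isolations is not given, so the p-values reflect the scatter of these libraries alone, and that scatter may be technical.

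The cycle runs in the mitochondrial matrix. Acetyl-CoA from pyruvate, fatty acids and ketone bodies joins oxaloacetate to form citrate, which is oxidised step by step back to oxaloacetate, while NADH and reduced flavin are passed on to the respiratory chain. Heart muscle depends on this oxidation for most of its ATP, and its mitochondria hold the enzymes at high levels. Isocitrate dehydrogenase and 2-oxoglutarate dehydrogenase are the steps most strongly controlled by calcium, ADP and the NADH ratio.

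Upstream sequence is shown for 4 of these genes because they differ in how they behaved: Cs, Dlst and Mdh2 fell with Tbx18 and Ogdh did not pass the test. RefSeq promoters were found for 8 of the 9 genes, Idh3a being the gene with no entry. Each line gives the 250 bases before the RefSeq start on build GRCr8, 5′ to 3′ on the strand of the gene, with capitals for a match to a searched motif.

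Cs, chr7:1348139-1348388, plus strand: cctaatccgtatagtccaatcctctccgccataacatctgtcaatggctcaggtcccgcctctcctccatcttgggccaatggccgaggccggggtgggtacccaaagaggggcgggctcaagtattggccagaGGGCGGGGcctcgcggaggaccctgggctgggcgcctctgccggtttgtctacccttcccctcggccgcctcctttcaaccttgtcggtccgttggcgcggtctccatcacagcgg

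Dlst, chr6:110489456-110489705, plus strand: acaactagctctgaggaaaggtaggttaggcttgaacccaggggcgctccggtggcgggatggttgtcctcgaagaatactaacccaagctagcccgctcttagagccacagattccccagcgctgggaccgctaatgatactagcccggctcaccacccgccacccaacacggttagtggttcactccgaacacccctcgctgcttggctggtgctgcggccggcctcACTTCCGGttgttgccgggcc

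Mdh2, chr12:26543842-26544091, minus strand: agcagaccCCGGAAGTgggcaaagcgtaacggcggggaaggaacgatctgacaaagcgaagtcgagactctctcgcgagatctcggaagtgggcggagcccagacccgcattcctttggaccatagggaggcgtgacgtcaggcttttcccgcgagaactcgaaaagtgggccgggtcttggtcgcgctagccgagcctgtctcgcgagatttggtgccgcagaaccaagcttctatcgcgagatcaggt

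Ogdh, chr14:85363781-85364030, plus strand: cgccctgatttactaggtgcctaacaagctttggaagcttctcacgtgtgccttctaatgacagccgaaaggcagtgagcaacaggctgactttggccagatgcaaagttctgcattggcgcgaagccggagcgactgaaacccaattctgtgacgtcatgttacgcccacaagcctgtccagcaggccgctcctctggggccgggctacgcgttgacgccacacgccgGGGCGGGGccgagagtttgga

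The capitals in Cs and Ogdh mark GGGCGGGG, an Sp1 motif, and those in Dlst and Mdh2 mark CCGGAAGT, an ETS motif bound by GABPA, on either strand. The Sp1 motif was found in 3 of the 8 promoters (Cs, Ogdh and Sucla2) and in 29.8% of the 8786 promoters of tested genes, against 14.2% of all 33469 promoters of this length. The ETS motif was found in 2 of 8, in 6.98% of promoters of tested genes and in 3.10% of all promoters. A YY1 motif, AAGATGGC, was found in that of Idh3g alone among the 8, in 2.23% of promoters of tested genes and in 1.63% of all. No match in either direction was found in the 8 windows for TNAAGGTCA (estrogen-related receptors), GCGCATGC (NRF1) or AGGTGTGA (a T-box half-site), which 0.455%, 4.66% and 0.763% of promoters of tested genes hold, against 1.04%, 2.20% and 0.959% of all. Base composition was ordinary for expressed genes: the GC content of the 8 windows had a median of 60.2%, from 47.2% to 65.2%, against a median of 60.4% over the promoters of tested genes and 51.2% over all promoters. Such matches describe letters in a window and show no binding.

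Reads recovered from the deposited values came to 17074483 to 19800300 per library, and the 9 genes had 3609 to 18176 reads each in any library. Tbx18 was read at 268 to 312 normalized counts in GFP and at 5937 to 6236 in Tbx18, so the libraries matched their labels. Group differences were tested with limma on the log2 scale, after adding 1 to each normalized count, in 11230 genes whose mean reached 10, and a gene was called at a Benjamini-Hochberg adjusted p under 0.05. At this threshold 23.5% of all tested genes were called lower in Tbx18 and 22.5% higher, and the median log2 fold change was 0.01. Values below are normalized counts, given as mean ± SD over 3 libraries. They are not divided by transcript length, so levels of different genes are not ranked.

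Transcripts for 8 of the 9 enzymes were lower in the Tbx18 libraries, at 55.8% to 75.3% of their GFP means, and for these 8 every Tbx18 library was below every GFP library, as for 28.6% of all tested genes and 51.0% of the 573 tested genes of like abundance, those whose mean lay between the lowest and the highest mean of these 9. Idh3g fell furthest and Suclg1 least. Ogdh, which encodes the substrate-binding E1 component of 2-oxoglutarate dehydrogenase, was the exception, at 101% of its GFP mean. The 8 of 9 called lower compare with 23.5% of all tested genes and with 44.7% of the 573. The median log2 fold change was -0.60 for the 9 genes, -0.22 for the 573 genes of like abundance and 0.01 for all. In these bulk cultures, fewer cells of a type and less RNA per cell cannot be told apart.

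**Figure D1:**
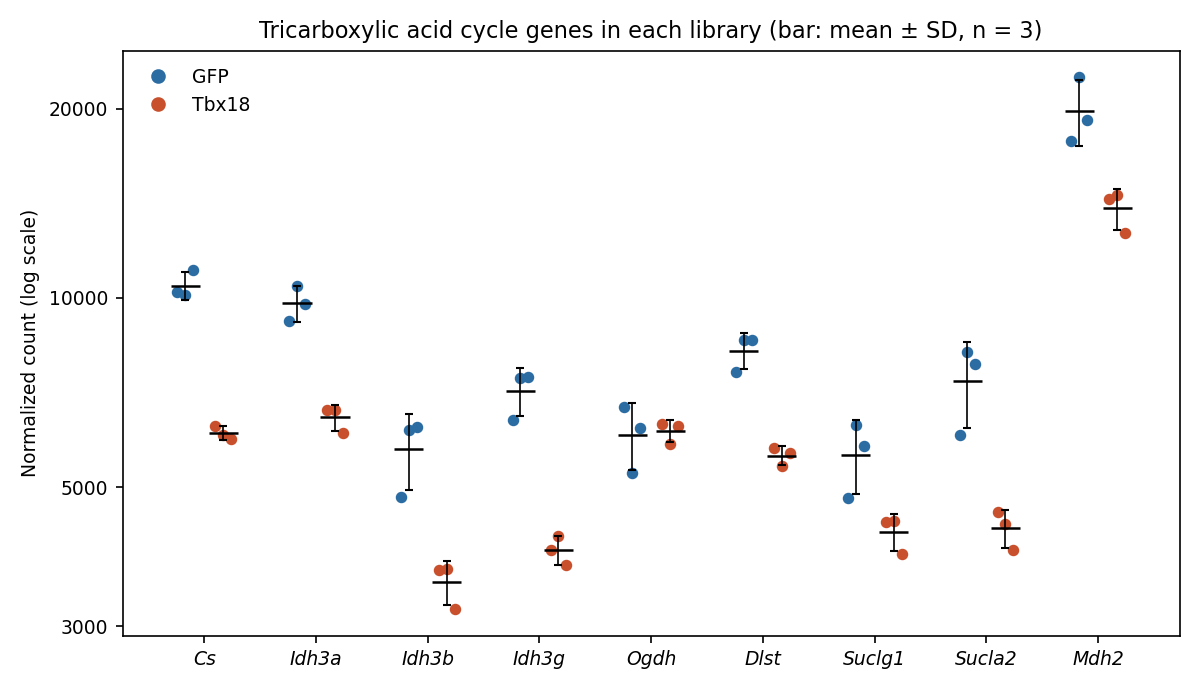
Normalized counts of the 9 genes in each library on a log axis (blue, GFP; orange, Tbx18; bars, mean ± SD, n = 3 per group). The Tbx18 points lie below every GFP point for each gene but Ogdh, whose Tbx18 points lie inside its GFP range of 5256 to 6710.3.

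Cs, which condenses acetyl-CoA with oxaloacetate at the entry of the cycle and is widely used as a marker of mitochondrial content, had 10202, 10092 and 11070.3 normalized counts in the GFP libraries. In the Tbx18 libraries it had 6263, 6043 and 5971. The groups were tight and far apart, with coefficients of variation of 5.13% and 2.49%. The mean went from 10455 ± 536 to 6092 ± 152, a 1.72-fold fall (limma adjusted p = 6.63e-05, log2 fold change -0.78 with an SE of 0.08).

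The 3 subunits of NAD-dependent isocitrate dehydrogenase, which makes 2-oxoglutarate and NADH and is activated by ADP and calcium, fell together. Idh3a, the catalytic alpha subunit, had 9180.5, 10454 and 9768 counts in GFP and 6632, 6628 and 6101 in Tbx18. Idh3b, the beta subunit, had 4817, 6164 and 6239 in GFP and 3693, 3698 and 3197 in Tbx18. For the regulatory gamma subunit Idh3g the values were 6391, 7464 and 7471 against 3969, 4179 and 3752. In each case the lowest GFP library was replicate 1 and the lowest Tbx18 library was replicate 3, and the groups stayed apart. Idh3a fell 1.52-fold (limma adjusted p = 0.00039, log2 fold change -0.60 with an SE of 0.08). For Idh3b the fall was 1.63-fold (-0.69, SE 0.11, adjusted p = 0.00096), and for Idh3g it was 1.79-fold (-0.84, SE 0.09, adjusted p = 9.23e-05).

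The 2-oxoglutarate dehydrogenase complex, which turns 2-oxoglutarate into succinyl-CoA, split by component. The 3 GFP values of Ogdh were 6710.3, 5256 and 6213, and its Tbx18 values were 6311, 5852 and 6253. The Tbx18 values lay inside the GFP range. The group means were 6059.9 ± 739 and 6139 ± 250.2 (log2 fold change 0.03, 95% confidence interval -0.20 to 0.25, limma adjusted p = 0.856). This interval leaves room for a fall to the size of its lower bound, and lies above the estimated fold changes of all the other 8 genes. It overlaps the 95% confidence interval of Suclg1, -0.65 to -0.16. Dlst, the E2 component that carries the lipoyl arm, had 7611, 8567 and 8564 counts in GFP and 5777, 5394 and 5661 in Tbx18. Its mean went from 8248 ± 551 to 5611 ± 197, a 1.47-fold fall (adjusted p = 0.000551, log2 fold change -0.55 with an SE of 0.08).

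Succinate-CoA ligase makes ATP or GTP directly from succinyl-CoA, and its alpha subunit Suclg1 pairs with either the ATP-forming beta subunit Sucla2 or the GTP-forming Suclg2. Suclg1 had 4797, 6277 and 5805 counts in GFP and 4391, 4415 and 3909 in Tbx18, where the lowest GFP library came close to the highest Tbx18 library. It fell 1.33-fold, the smallest fall among the 8 (limma adjusted p = 0.0134, log2 fold change -0.40 with an SE of 0.11). That call was lost without Tbx18 replicate 3 (adjusted p = 0.0614). Sucla2 had 6058, 8208 and 7839 counts in GFP and 4558, 4366 and 3967 in Tbx18, and it was the most variable of the 9 within GFP, with a coefficient of variation of 15.6%. The mean went from 7368 ± 1149 to 4297 ± 301, a 1.71-fold fall (adjusted p = 0.000692, log2 fold change -0.77 with an SE of 0.12).

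Mdh2 closes the cycle by oxidising malate to oxaloacetate and also serves the malate-aspartate shuttle, which carries reducing equivalents of cytosolic NADH into mitochondria. It had 17800.3, 22447 and 19179 counts in GFP and 14392, 14569 and 12684 in Tbx18. Replicate 2 was the highest GFP library, and the groups did not overlap. The mean went from 19809 ± 2386 to 13881 ± 1041, a 1.43-fold fall (limma adjusted p = 0.00417, log2 fold change -0.51 with an SE of 0.11).

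**Figure D2:**
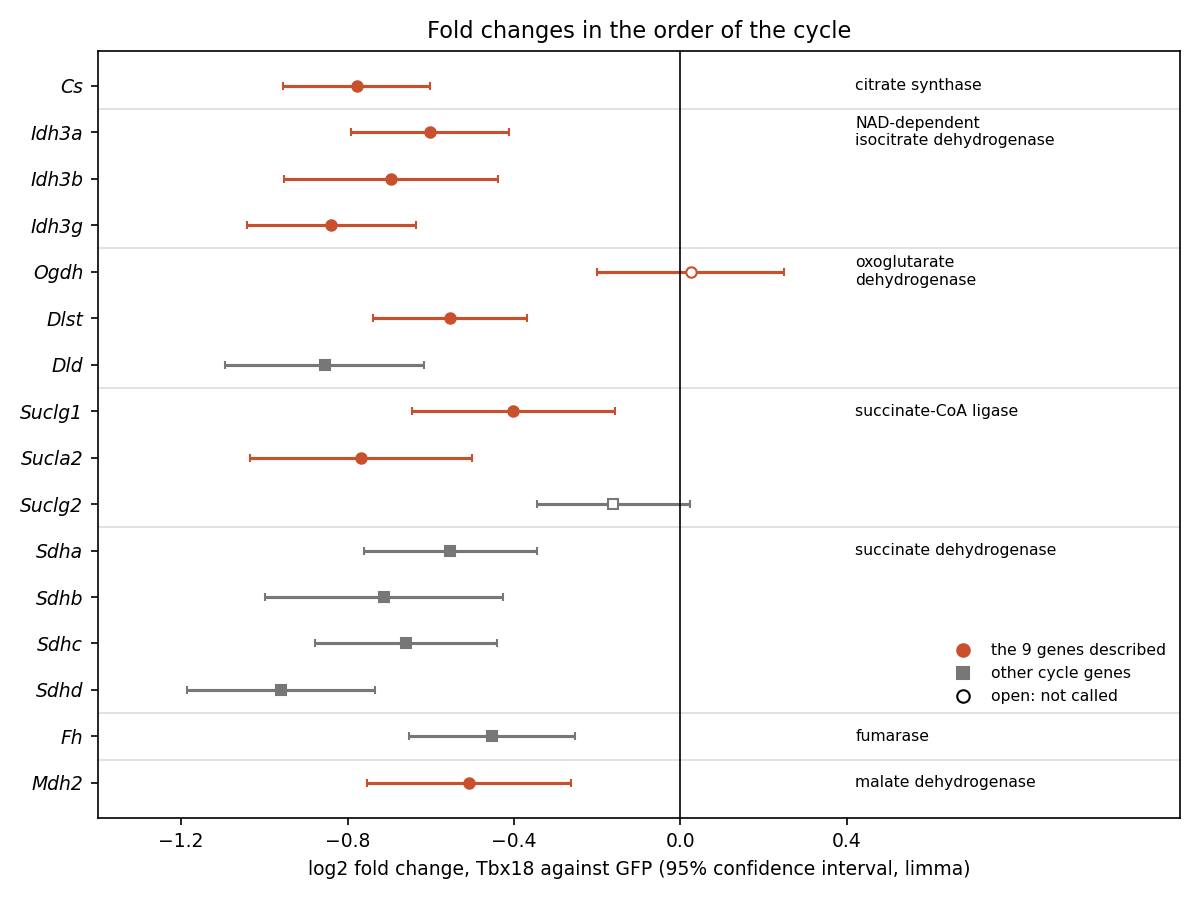
Log2 fold changes with 95% confidence intervals for genes of the cycle, ordered by step. Circles are the 9 genes, squares are Dld, Suclg2, Sdha, Sdhb, Sdhc, Sdhd and Fh, and open symbols were not called. Ogdh at 0.03 and Suclg2 at -0.16 are the open symbols, and the filled ones lie between -0.96 and -0.40.

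The libraries of 1 group moved the genes in common. GFP replicate 1 lay below the GFP mean for 8 of the 9 genes, the exception being Ogdh, with a median deviation of -0.15 on the log2 scale. GFP replicate 2 lay above it for 7 of 9, with Ogdh at -0.20. Tbx18 replicate 1 was above its group mean for 9 of 9 and Tbx18 replicate 3 for 2 of 9, with a median of -0.08. Ogdh lay on the opposite side from most of the 9 in 4 of the 6 libraries, more than any other of them.

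The scaling of the libraries bore on the size of the falls. The deposited totals were smaller in Tbx18, and scaling to equal recovered reads moved the median of all tested genes from 0.01 to 0.27. On that scale 6 of the 9 genes were called lower, with a median log2 fold change of -0.34. Of all 11251 genes tested on that scale 1351 were called lower and 4792 higher. A common factor per library leaves the distance from the median of all genes as it was, at -0.61, whereas after quantile normalization this distance was -0.31. Suclg1 (-0.14, adjusted p = 0.246) and Mdh2 (-0.24, adjusted p = 0.0529) were not called with equal recovered reads, and Ogdh was at 0.29 (adjusted p = 0.0527). After quantile normalization the same 6 genes, Cs, Idh3a, Idh3b, Idh3g, Dlst and Sucla2, were called lower, and Ogdh was called higher by 0.29 (adjusted p = 0.0459). Over the 20 alternatives adjusted p ran from 0.0459 to 0.979 for Ogdh, from 0.000692 to 0.246 for Suclg1 and from 4.56e-05 to 0.0599 for Mdh2. As a sum, the 9 genes came to 3652, 3939 and 3923 CPM in GFP, that is, recovered reads scaled by the library total, and 3241, 3152 and 2963 in Tbx18. These group values did not overlap, and the mean went from 3838 ± 161 to 3119 ± 142, or 81.3% of GFP. The 2-sided exact permutation p was 0.10, the smallest that 3 against 3 libraries can give.

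**Figure D3:**
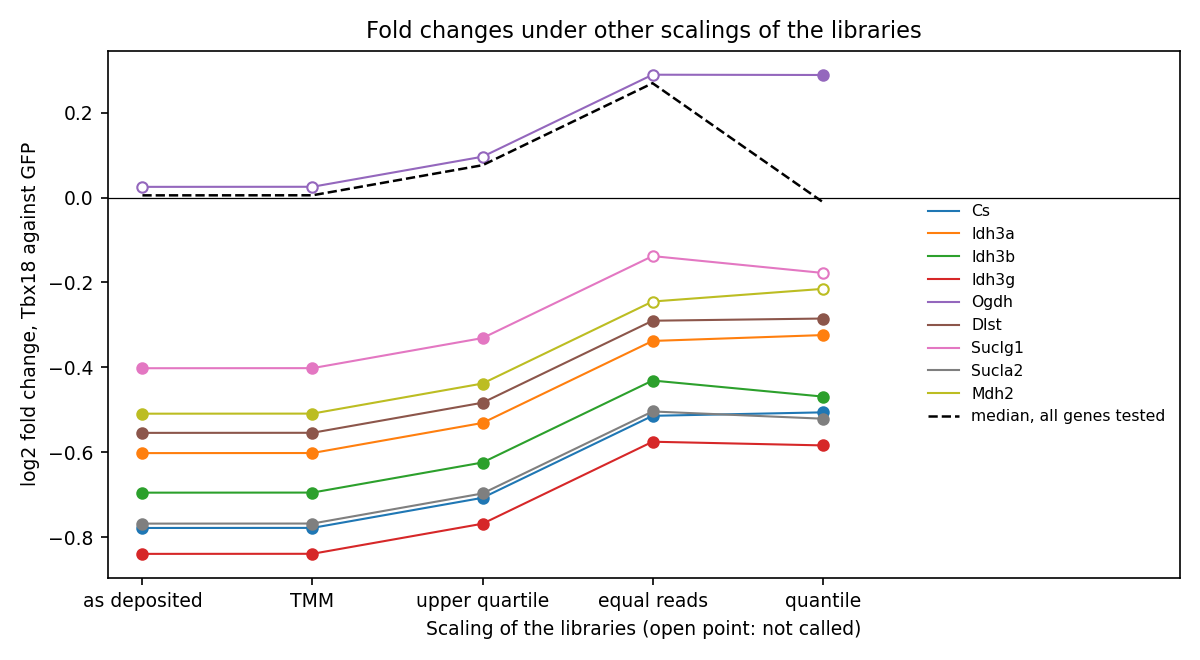
Log2 fold change of each of the 9 genes (lines) under 5 scalings of the libraries (x axis), with the median of all tested genes dashed; open points were not called. The order of the genes is nearly unchanged while the level shifts, and Ogdh is the gene at or above the dashed line.

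Ratios between genes within a library do not depend on a common factor per library, so they were used to compare partners of 1 enzyme. They are ratios of counts, not of molecules, and were not computed after quantile normalization, which does alter them. Of 10 ratios 8 had groups that did not overlap, and so did 68.2% of all 163878 pairs of the 573 genes of like abundance. Groups that stand apart are thus common among gene pairs in these libraries, and the ratios are given for their sizes. Each of the 8 had a 2-sided exact permutation p of 0.10, the smallest possible, and 0.125 after adjustment over the 10, so none could pass 0.05 at this sample size.

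The differences in mean log2 ratio were widest for Ogdh to Dld (0.88), Sucla2 to Suclg2 (-0.61) and Ogdh to Dlst (0.58). The log2 ratio of Ogdh to Dlst was -0.18, -0.70 and -0.46 in GFP and 0.13, 0.12 and 0.14 in Tbx18. In plain terms the count ratio went from a mean of 0.732 to 1.09, a change of 1.49-fold that every Tbx18 library showed. Against Dld, the E3 component shared with pyruvate dehydrogenase, the Ogdh log2 ratio was -0.15, -0.91 and -0.47 in GFP and 0.38, 0.27 and 0.47 in Tbx18, a change of 1.84-fold. The GFP libraries were spread in both ratios and the Tbx18 libraries were close together. Without GFP replicate 1 the change in the Ogdh to Dlst log2 ratio was 0.71 in place of 0.58, and without GFP replicate 2 it was 0.45.

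The log2 ratio of Sucla2 to Suclg2 was 0.93, 1.28 and 1.25 in GFP and 0.55, 0.53 and 0.55 in Tbx18, so the count ratio of the ATP-forming to the GTP-forming subunit went from a mean of 2.22 to 1.46. Suclg2 itself had 3287 ± 108 and 2944 ± 205 counts and was not called (log2 fold change -0.16, 95% confidence interval -0.34 to 0.02, limma adjusted p = 0.135). The Suclg1 to Sucla2 ratio went on the log2 scale from -0.34, -0.39 and -0.43 to -0.05, 0.02 and -0.02. Those groups were narrow, with SDs of 0.05 and 0.04.

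Within isocitrate dehydrogenase the shifts were smaller. The log2 ratio of Idh3a to Idh3g went from a mean of 0.47 to 0.70 and that of Idh3b to Idh3g from -0.31 to -0.17, both without overlap. For Idh3a to Idh3b the groups overlapped, at 0.78 ± 0.14 in GFP and 0.87 ± 0.05 in Tbx18 (2-sided exact permutation p = 0.40, n = 3 per group). Compared with Idh2, the NADP-dependent mitochondrial isocitrate dehydrogenase, Idh3a went from a mean log2 ratio of -1.16 to -0.87. For malate dehydrogenase, Mdh2 to the cytosolic form Mdh1 went from -0.27, -0.34 and -0.23 to 0.08, 0.08 and 0.08. The Mdh2 to Cs ratio overlapped between groups (0.92 ± 0.21 and 1.19 ± 0.09, exact permutation p = 0.20).

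**Figure D4:**
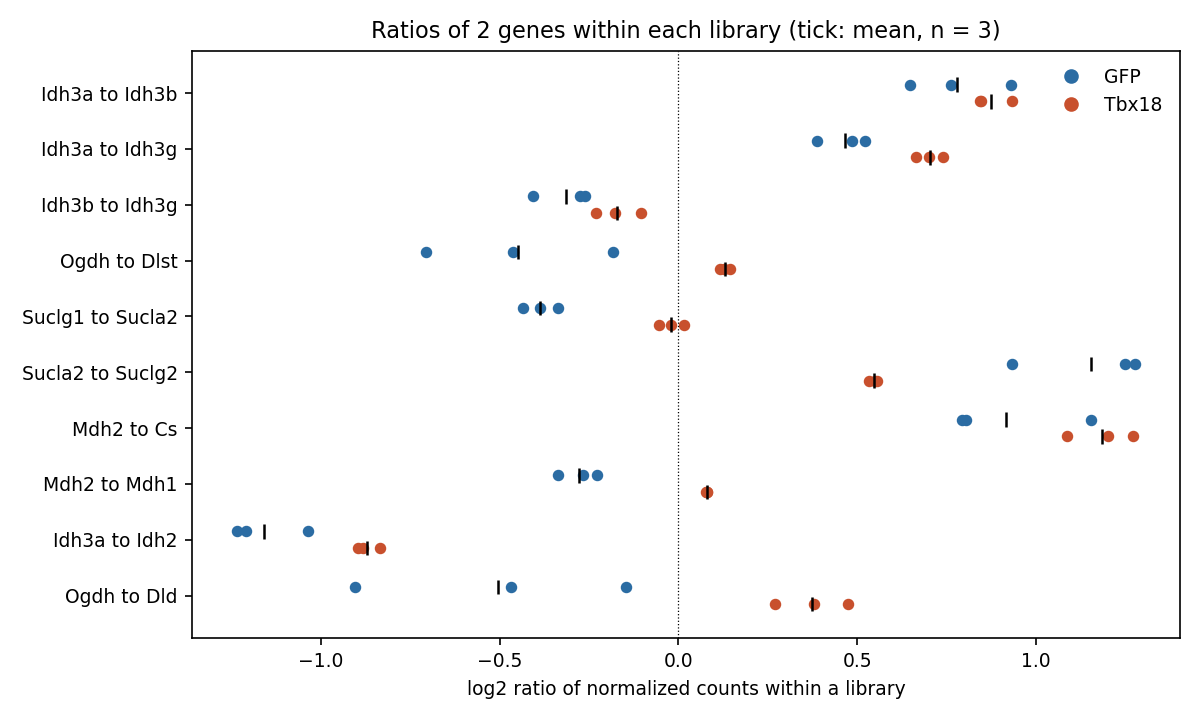
Log2 ratio of the counts of 2 genes within each library for the 10 gene pairs (blue, GFP; orange, Tbx18; black ticks, group means, n = 3). The groups overlap for Idh3a to Idh3b and for Mdh2 to Cs and are apart for the other 8 pairs, with the widest gap in mean for Ogdh to Dld.

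Each gene was also set against the mean log2 value of the other 8 in the same library, a comparison added after the data were seen. Ogdh went from a mean of -0.50 to 0.17 and Suclg1 from -0.62 to -0.43, the 2 genes that gained against the rest with groups apart. Cs (0.40 to 0.16), Idh3g (-0.23 to -0.54) and Sucla2 (-0.18 to -0.41) lost against the rest with groups apart. Idh3a, Idh3b, Dlst and Mdh2 overlapped between the groups. Groups were apart for 5 of the 9, and for 78.2% of the other 564 genes of like abundance set against the mean of the 9. These 5 had an exact permutation p of 0.10 and 0.18 after adjustment over the 9.

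The other genes of the cycle largely followed the 9. Of 12 tested, 10 were lower and 1 higher, with a median log2 fold change of -0.61. Idh2 fell 1.86-fold (limma adjusted p = 0.000212), and Dld, at 8618 ± 1212 in GFP and 4737 ± 202 in Tbx18, fell 1.82-fold. The succinate dehydrogenase subunits, which also form complex II of the respiratory chain, fell from 1.47-fold for Sdha to 1.95-fold for Sdhd, and fumarase, Fh, fell 1.37-fold, a call lost with equal recovered reads (adjusted p = 0.0700) and after quantile normalization (0.0628). Mrps36, reported to anchor the E3 component in the 2-oxoglutarate dehydrogenase complex, fell 1.46-fold.

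Both relatives of Ogdh had few reads. Ogdhl, a paralog best known from brain, fell 1.31-fold to 214 ± 9.11 normalized counts in Tbx18 (limma adjusted p = 0.0227), a call lost when any library other than GFP replicate 1 was left out and with equal recovered reads. Dhtkd1, the E1 component of the related 2-oxoadipate dehydrogenase of lysine breakdown, was the gene called higher, from 75.8 ± 24.2 to 144 ± 28.5 (log2 fold change 0.94, adjusted p = 0.0104). Its call was lost without Tbx18 replicate 3 (adjusted p = 0.0530, range over the alternatives 0.000875 to 0.0530).

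Cytosolic counterparts and shuttle genes were mixed. Of 12 tested, 6 were lower and 2 higher, beside 23.5% and 22.5% of all tested genes. Partners of Mdh2 in the malate-aspartate shuttle were among the falls: Mdh1 fell 1.83-fold from 24067 ± 3725 to 13141 ± 982, the aspartate aminotransferases Got1 and Got2 fell 1.81-fold and 1.45-fold, and the oxoglutarate carrier Slc25a11 fell 1.72-fold. The malic enzymes Me1 and Me3 fell 1.42-fold and 1.93-fold. Aco1, the cytosolic aconitase that doubles as an iron-responsive RNA-binding protein, rose 1.34-fold from 1310.3 ± 100.1 to 1749.6 ± 35.1 (limma adjusted p = 0.00291). Acly, which splits exported citrate into acetyl-CoA for lipid synthesis, rose 1.25-fold (adjusted p = 0.0227, from 0.00173 to 0.0938 over its alternatives), a call lost without the intensity trend, without GFP replicate 2, without Tbx18 replicate 1 or without Tbx18 replicate 3. The cytosolic isocitrate dehydrogenase gene Idh1 had 1627 ± 415 and 1609 ± 68.8 counts and was not called.

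Of 11 tested genes that feed carbon into the cycle, 4 were lower and 0 higher in limma, beside 23.5% and 22.5% of all tested genes. At an unadjusted p under 0.05, or in edgeR or DESeq2 on the recovered reads, 0 were higher. The ketone body genes Bdh1 and Oxct1 fell 2.20-fold and 1.93-fold, and Oxct1 went from 12849 ± 571 to 6641 ± 222. Acat1, the thiolase of the same route, was not called (log2 fold change -0.25, limma adjusted p = 0.0873). Pcca and Mcee, which carry propionyl-CoA toward succinyl-CoA, fell 2.01-fold and 1.62-fold. Pccb, the partner subunit of Pcca in propionyl-CoA carboxylase, was not called, at 1827 ± 157 and 1914 ± 86.4 counts (adjusted p = 0.551). Pyruvate carboxylase, Pc (669 ± 135 and 663 ± 43.0), and glutamate dehydrogenase, Glud1 (3664 ± 169.6 and 4150.4 ± 237), were not called. With equal recovered reads 4 of the 11 were lower and 4 higher, beside 1351 lower and 4792 higher among all 11251 genes tested. Of 4 genes for lipoylation and succinate dehydrogenase assembly 2 were lower, and 1 with equal recovered reads or without Tbx18 replicate 1. Lias, which makes the lipoyl group that Dlst carries, fell 1.73-fold from 1003 ± 124 to 581 ± 11.8 (adjusted p = 0.000312), and the assembly factor Sdhaf2 was at -0.28 on the log2 scale. The lipoyl transferase genes Lipt1 (-0.18) and Lipt2 (-0.22) were not called.

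Mitochondrial genes outside the cycle fell by a like amount. Of 19 genes for import, channel, carrier and chaperone proteins, 18 were lower, with a median log2 fold change of -0.60, among them the outer membrane channel Vdac1 (-0.86), the chaperone Hspa9 (-0.82) and the ADP/ATP carrier Slc25a4 (-0.80). The count was 13 with equal recovered reads (median -0.34) and 14 after quantile normalization (median -0.37). The mean log2 value of the 9 genes minus that of these 19 was 0.12, 0.09 and 0.14 in GFP and 0.17, 0.11 and 0.10 in Tbx18, which overlapped. Among 12 regulators of mitochondrial genes 7 were lower, with the largest falls in Ppara (-1.28), Ppargc1b (-1.21) and Esrrg (-0.88), nuclear receptors and a coactivator that drive oxidative genes in heart. The 1 called higher was Gabpa (0.24), named here after its value was seen, and this call was lost with the replicate block, without the intensity trend and without GFP replicate 2, GFP replicate 3 or any 1 Tbx18 library. With equal recovered reads 4 of the 12 were lower and 4 higher, beside 1351 lower and 4792 higher among all 11251 genes tested.

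**Figure D5:**
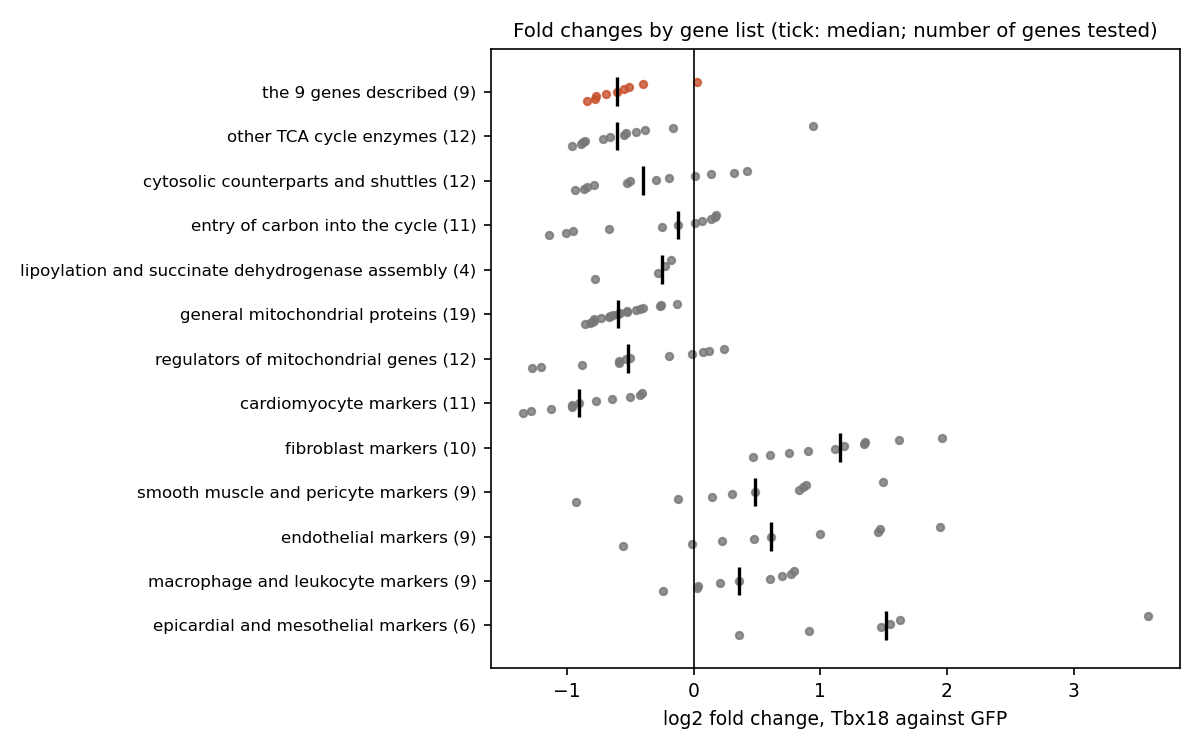
Log2 fold change of every tested gene in each list (x axis, points; black ticks, list medians; number of genes tested in parentheses), with the 9 genes in orange. The 9 genes, the other cycle genes and the general mitochondrial proteins have medians near -0.60, between the cardiomyocyte markers at -0.90 and the stromal lists above 0.

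Markers of cell types moved in the same libraries. Cardiomyocyte markers were read in every library, and 9 of 11 were lower, beside 23.5% of all tested genes. The median log2 fold change of the 11 was -0.90, led by the troponin genes Tnnt2 (-1.35) and Tnnc1 (-1.13) and by Mybpc3 (-1.29). Their summed level was 801265 to 878300.0 normalized counts in GFP and 489036 to 495372 in Tbx18. The mean log2 value of the 9 genes minus that of these 11 markers was -2.66, -2.57 and -2.50 in GFP and -2.25, -2.31 and -2.33 in Tbx18. Against cardiomyocyte markers the 9 genes were thus higher in each Tbx18 library than in any GFP library, by a mean of 0.28. The mean of the 9 includes Ogdh, which was not called. Groups also stood apart for 78.2% of the other 564 genes of like abundance, each set against the mean of the 9.

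Fibroblast markers went the other way, 9 of 10 higher, beside 22.5% of all tested genes. Their summed levels were 240545 to 280410.0 and 516087 to 600230.0, mostly Col1a1 (198103 ± 18663 and 371165 ± 34640). The marker not called was Col1a2, with only 2 to 30 reads per library. The largest rises were in Tcf21 (1.96), Col3a1 (1.62) and Postn (1.35). Of 9 smooth muscle and pericyte markers 5 were higher and 1 lower (sums of 79705 to 117524 and 122254 to 134106), with the largest changes in Pdgfrb (2552 ± 507 to 7133 ± 667 normalized counts) and Cnn1 (-0.93). The largest part of these sums was Acta2, which was not called (56794 ± 16329 and 68059 ± 4181). Of 9 endothelial markers 6 were higher and 1 lower (1749 to 2783 and 2591 to 2777). Epicardial markers were higher for 5 of 6 (674 to 915 and 3566 to 4277), led by Krt8 (3.59). Macrophage and leukocyte markers were higher for 3 of 9, beside 22.5% of all tested genes, and their sums overlapped between groups (1308 to 2362 and 1676 to 2296). Cd3e was at 0 in every library. That count of 3 was 5 without GFP replicate 2, 1 without GFP replicate 3 or Tbx18 replicate 2, and 0 without Tbx18 replicate 3. The part of the cell mixture in the fall of the cycle genes was not tested.

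The genes whose course over the 6 libraries was nearest to the mean of the 9 were sought, over 9220 genes whose mean reached 100, by the root mean square distance of log2 values centred on each gene's mean. Among the nearest 6 were Sdha, Mrpl9 (spelled mrpl9 in the table), Nap1l4, Ifngr2 and Ptbp2, at distances of 0.0215 to 0.0292. Sdha is the flavoprotein subunit of succinate dehydrogenase, and Mrpl9 is a protein of the mitochondrial ribosome. Of these named genes only Sdha was on a gene list used above. Their log2 fold changes ran from -0.55 (Mrpl9) to -0.60 (Ptbp2). Of the 9 genes themselves, Idh3a lay nearest to their mean at 0.0346 and Ogdh farthest at 0.341.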

How the data were processed

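Per the labels' protocols, total RNA (100 ng) went into TruSeq stranded libraries, sequenced in 101 bp pairs. Tools listed in the submitters' processing notes, with no roles, are DESeq2 1.10.1, HTSeq, STAR 2.4.0g1 and bcl2fastq 2.17.1.14. The sources used here do not give the genome build, the annotation or the strand setting. The deposited signal is, per the file name, DESeq2-normalized counts: the authors divided gene read counts by 1 size factor per library. Reads were recovered, since 100% of values were whole multiples of their column's step within 0.01. Values were tested with limma-trend (limma 3.58.1, R 4.3.3), on log2(normalized count + 1), for 11230 genes with a mean of at least 10, adjusted by Benjamini-Hochberg and called under 0.05. Alternatives were other scalings, pseudocounts, filters and limma settings, a replicate block, leaving out each library, and count tests on the recovered reads (DESeq2 1.42.0, edgeR 4.0.16). edgeR called 2591 genes lower and 2615 higher on the recovered reads. The 9 genes and all lists were chosen with earlier results of these data known. The genes named are the 9, Tbx18, any cycle, cytosolic or shuttle gene, the 3 called genes of largest change with a mean of at least 100 in each other list, and the 6 genes nearest in course, of which some are not reported here; Pc, Pccb, Acat1, Glud1, Mcee, Lipt1, Lipt2 and Gabpa were named after their values were seen. List symbols with no row were left out. How reads shared with gene copies were counted is not given.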

Additional observations from a re-analysis of the deposited data

How the results depend on the processing

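Over the 180 alternative values of the 9 genes (20 settings each), 173 kept their direction and their side of the threshold, 5 lost the call, all of them Suclg1 or Mdh2, 1 gained it and 1 changed sign. The other filters, the other limma settings and the block leave the fold changes as they are, so they could alter only the call. The sign change was Ogdh without GFP replicate 2 (log2 fold change -0.074, adjusted p = 0.493), which was not called in either case, and the gain was Ogdh after quantile normalization (0.29). The median of the 9 genes, -0.60, moved by more than the spread between libraries after quantile normalization (-0.32) and with equal recovered reads (-0.34), and ran from -0.65 to -0.55 with 1 library left out. The number of the 9 called lower was 6 to 8 over all settings and 7 to 8 with 1 library left out. All genes called numbered 5164, and 3951 to 5868 with 1 library left out; with equal recovered reads 4792 were called higher and 1351 lower, against 3057 and 2209 after upper-quartile scaling.

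Same-numbered libraries correlated in their deviations at -0.00474, 0.151 and 0.0165, so the numbers were not taken as pairs; with the replicate block 8 of the 9 were called lower and 5155 genes were called in all. None of the 10 within-library ratios changed direction with 1 library left out. The block cannot alter a difference of group means in this balanced design, and other pseudocounts hardly alter counts of this size. Neither could therefore test the direction. Dlst against the other 8 changed direction without Tbx18 replicate 3 (range with 1 library left out -0.031 to 0.062). Further sign changes were those of Suclg2 (0.10 with equal recovered reads, 0.027 after quantile normalization), Me2 (0.072 with equal recovered reads) and Idh1 (-0.013 in DESeq2, and -0.14 to 0.21 with 1 library left out), all uncalled. Slc25a1 was called only with equal recovered reads and Slc25a10 only with the replicate block. The cause was not tested. At 3 libraries per group no exact permutation test could reach 0.05.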
